A study of Homo sapiens with 2 samples.

Results

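In B2B cells, 166 clusters of distal open chromatin regions were found, which together held 774 of the 15033 distal open regions (5.15%). BEAS-2B, called B2B, are bronchial epithelial cells of human origin that were immortalized and are not derived from a tumour. It was profiled by ATAC-seq as untreated wild-type cells in 2 replicates, with no other condition, which leaves no contrast to test. ATAC-seq uses the Tn5 transposase to insert adapters into accessible DNA, and each replicate had its own list of peaks. An open region was a stretch of overlapping peaks that held a peak of each replicate, and 25326 such regions lay on chromosomes 1 to 22 and X. A region was called distal when its summit, the position of the highest signal, lay more than 1 kb from every transcription start site (TSS) of the canonical transcript of a protein-coding gene. Distal regions were chained when neighbouring summits were at most 12.5 kb apart, and a cluster is a chain of 4 or more regions. The members were thus selected on the measured peaks of both replicates, and their number, spacing and summed fold enrichment describe that choice. They were ranked by the number of regions and then by the summed fold enrichment, the mean of both replicates. Each chain is called here by the protein-coding gene with the nearest TSS, which is a position and not a measured target.

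Enhancers are stretches of DNA outside promoters that bind transcription factors and raise transcription of genes that can lie far away. Active enhancers are open to transposase, and several of them often lie close together around genes that define a cell type or respond to growth signals. AP-1, a dimer of JUN and FOS family proteins, binds a short motif that is common in open regions of adherent cells. Super-enhancers are defined by H3K27 acetylation or Mediator binding, neither of which was analysed here, so the chains are described only as clusters of open regions.

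The AP-1 motif TGACTCA, read on either strand, was present in every region of only 2 of the 145 chains with unique sequence, those nearest to FGGY and MRPS22. Their windows of 201 bases, centred on each summit, are shown to let a reader see where the motif lies. Capitals mark the motif, which reads TGAGTCA on the other strand. All windows are given 5′ to 3′ on the plus strand of hg38. The 4 FGGY windows are chr1:59128450-59128650, chr1:59136512-59136712, chr1:59143136-59143336 and chr1:59151145-59151345, all intergenic, that is, outside annotated protein-coding genes. The 4 MRPS22 windows are chr3:139299444-139299644, chr3:139302335-139302535, chr3:139310498-139310698 and chr3:139312941-139313141, all labelled as introns of MRPS22. Intron here means within an annotated protein-coding gene and outside its exons, and does not place a region downstream of the canonical TSS. The canonical MRPS22 TSS lies at a higher coordinate than all 4 windows, 30.979 kb from the nearest summit.
FGGY region 1: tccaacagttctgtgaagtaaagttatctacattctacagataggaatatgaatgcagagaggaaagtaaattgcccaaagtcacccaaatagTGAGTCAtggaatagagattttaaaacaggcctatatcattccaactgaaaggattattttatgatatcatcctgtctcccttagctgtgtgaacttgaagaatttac
FGGY region 2: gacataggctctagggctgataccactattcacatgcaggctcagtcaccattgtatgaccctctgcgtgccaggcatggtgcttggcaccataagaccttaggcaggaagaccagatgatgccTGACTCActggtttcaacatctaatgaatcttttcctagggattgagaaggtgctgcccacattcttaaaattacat
FGGY region 3: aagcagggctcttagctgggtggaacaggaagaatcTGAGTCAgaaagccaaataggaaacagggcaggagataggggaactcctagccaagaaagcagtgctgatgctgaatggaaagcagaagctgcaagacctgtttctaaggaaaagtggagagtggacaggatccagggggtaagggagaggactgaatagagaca
FGGY region 4: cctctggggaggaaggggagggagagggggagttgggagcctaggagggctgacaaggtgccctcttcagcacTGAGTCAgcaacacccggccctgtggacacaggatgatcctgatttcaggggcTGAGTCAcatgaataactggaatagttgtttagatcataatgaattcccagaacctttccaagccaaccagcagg
MRPS22 region 1: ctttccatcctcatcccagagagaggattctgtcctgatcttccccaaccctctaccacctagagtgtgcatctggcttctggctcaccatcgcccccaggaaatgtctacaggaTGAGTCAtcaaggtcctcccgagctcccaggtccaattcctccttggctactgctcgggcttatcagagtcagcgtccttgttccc
MRPS22 region 2: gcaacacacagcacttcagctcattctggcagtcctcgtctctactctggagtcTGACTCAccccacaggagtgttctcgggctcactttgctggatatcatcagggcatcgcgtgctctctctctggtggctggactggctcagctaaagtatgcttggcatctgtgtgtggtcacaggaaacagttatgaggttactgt
MRPS22 region 3: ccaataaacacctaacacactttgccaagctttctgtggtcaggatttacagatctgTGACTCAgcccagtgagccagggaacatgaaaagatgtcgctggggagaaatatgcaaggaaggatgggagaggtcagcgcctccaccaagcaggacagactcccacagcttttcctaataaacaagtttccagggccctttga
MRPS22 region 4: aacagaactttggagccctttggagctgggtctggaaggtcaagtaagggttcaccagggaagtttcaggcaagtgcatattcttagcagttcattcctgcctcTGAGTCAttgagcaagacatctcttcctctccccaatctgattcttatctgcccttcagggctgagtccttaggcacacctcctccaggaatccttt

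Among the first-ranked chains of unique sequence with the motif in 2 or more regions, the region with the highest fold enrichment that held the motif is shown for 6 chains. These windows are chr17:57903318-57903518 in an intron of CUEDC1, chr1:181112556-181112756 between genes, chr1:12604426-12604626 in an intron of DHRS3, and the intergenic windows chr1:234997287-234997487, chr2:160205588-160205788 and chr15:73956775-73956975. In the ITGB6 window the motif occurs on both sides of the summit, and in the LOXL1 window it lies near the edge.
MRPS23 region 9: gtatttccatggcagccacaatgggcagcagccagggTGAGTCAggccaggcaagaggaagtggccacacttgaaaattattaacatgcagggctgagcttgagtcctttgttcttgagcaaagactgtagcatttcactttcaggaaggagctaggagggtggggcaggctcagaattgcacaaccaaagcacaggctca
IER5 region 5: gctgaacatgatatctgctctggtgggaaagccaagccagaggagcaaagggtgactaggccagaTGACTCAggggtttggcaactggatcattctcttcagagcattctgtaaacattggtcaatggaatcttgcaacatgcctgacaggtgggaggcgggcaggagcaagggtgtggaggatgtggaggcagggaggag
DHRS3 region 4: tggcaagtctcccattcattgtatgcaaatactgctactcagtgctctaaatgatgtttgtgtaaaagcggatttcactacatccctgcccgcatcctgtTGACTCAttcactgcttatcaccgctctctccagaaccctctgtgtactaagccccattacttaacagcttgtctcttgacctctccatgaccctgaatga
TOMM20 region 6: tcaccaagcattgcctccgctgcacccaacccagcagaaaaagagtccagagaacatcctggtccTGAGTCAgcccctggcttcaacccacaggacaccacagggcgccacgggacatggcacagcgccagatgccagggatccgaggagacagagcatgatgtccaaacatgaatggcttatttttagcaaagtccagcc
ITGB6 region 1: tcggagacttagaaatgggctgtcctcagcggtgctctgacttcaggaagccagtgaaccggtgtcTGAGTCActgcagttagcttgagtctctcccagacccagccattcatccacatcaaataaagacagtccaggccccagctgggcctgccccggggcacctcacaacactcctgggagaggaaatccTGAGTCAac
LOXL1 region 6: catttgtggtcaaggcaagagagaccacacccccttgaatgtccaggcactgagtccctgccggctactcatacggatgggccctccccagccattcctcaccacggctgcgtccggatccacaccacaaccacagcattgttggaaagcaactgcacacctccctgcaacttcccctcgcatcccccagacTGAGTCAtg

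Other chains were made of copies of the same sequence. In the largest chain, nearest to H3-7, the windows of regions 10 and 16 at chr1:143216730-143216930 and chr1:143254405-143254605 shared a run of 194 bases on opposite strands, marked in capitals. In the chain over U2 small nuclear RNA genes, nearest to CCDC200, the window of region 3 at chr17:43273017-43273217 was identical over all 201 bases to that of region 6 at chr17:43284055-43284255, so it is printed once and in capitals throughout.
H3-7 region 10: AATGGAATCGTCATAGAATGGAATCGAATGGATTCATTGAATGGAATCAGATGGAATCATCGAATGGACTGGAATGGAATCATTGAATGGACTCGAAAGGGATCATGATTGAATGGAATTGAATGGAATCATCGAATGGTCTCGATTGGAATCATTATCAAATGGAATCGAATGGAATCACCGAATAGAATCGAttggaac
H3-7 region 16: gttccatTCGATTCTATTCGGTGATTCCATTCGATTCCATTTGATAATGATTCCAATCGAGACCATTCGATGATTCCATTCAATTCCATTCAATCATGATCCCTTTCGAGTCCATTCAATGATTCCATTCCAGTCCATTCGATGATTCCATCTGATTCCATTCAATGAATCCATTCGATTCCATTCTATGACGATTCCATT
U2 region 3: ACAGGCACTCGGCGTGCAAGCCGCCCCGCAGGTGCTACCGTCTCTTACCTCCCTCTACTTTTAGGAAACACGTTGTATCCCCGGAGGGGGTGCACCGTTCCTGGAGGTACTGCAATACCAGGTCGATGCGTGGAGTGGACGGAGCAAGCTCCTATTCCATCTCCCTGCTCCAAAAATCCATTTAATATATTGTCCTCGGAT

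Because of such copies, the chains were divided by sequence after their values had been seen. A region was called repeated when the 31-base words of its window occurred, at the median, 2 or more times in hg38, and a chain when most of its regions were so. By this rule 19 chains with 124 regions were repeated, 2 chains with 9 regions matched mitochondrial DNA, and 145 chains with 641 regions were of unique sequence. Words were matched exactly, so diverged copies of a repeat could pass as unique. Of the 641 regions, 6 were themselves repeated. Unique-sequence chains held 4.26% of the distal regions. Results are given for this class, and the main ones also for all 166 chains.

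From the 28874 peaks listed for replicate 1, 28685 lay on the chromosomes used, and from the 36319 of replicate 2, 36109 did. The lists give no read totals, and the precision was read from the number of fragments at each summit, solved from the deposited fold enrichment and −log10 p. It came out whole for 99.8% of the distal summits in both replicates. The weakest member summit was covered by 17 fragments (replicate 1) and 16 fragments (replicate 2), and the weakest of all distal summits by 16 and 14. Regions without a peak were not measured here. Whether the 2 replicates are separate cultures or preparations of 1 culture is not stated in the labels. As a check of the cell label, promoter peaks in both replicates were found at 2 of 15 epithelial marker genes (KRT17 and KRT18), at 9 of 12 mesenchymal marker genes and at 1 of 12 blood and endothelial marker genes (CD14). The defining epithelial markers other than these keratins had no promoter peak in both lists.

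Chains of 4 regions made up most of the members. There were 115 chains of 4 regions, 27 of 5, 14 of 6 and 5 of 7, and 1 chain each of 8, 9, 10, 11 and 22 regions. Of the 5 chains with 8 or more regions, 1 was of unique sequence. Outside the members, 9607 distal regions stood alone, 1729 chains had 2 regions and 398 had 3. Just outside the limit, chains of 3 had a median summed fold enrichment of 19.8 in replicate 1 and 22.96 in replicate 2. Just inside, chains of 4 had 26.2 and 30.2. The longest distance that was joined was 12494 bp and the shortest that was not was 12501 bp. With a limit 0.5 kb shorter there were 158 chains, and with one 0.5 kb longer there were 172.

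**Figure D1:**
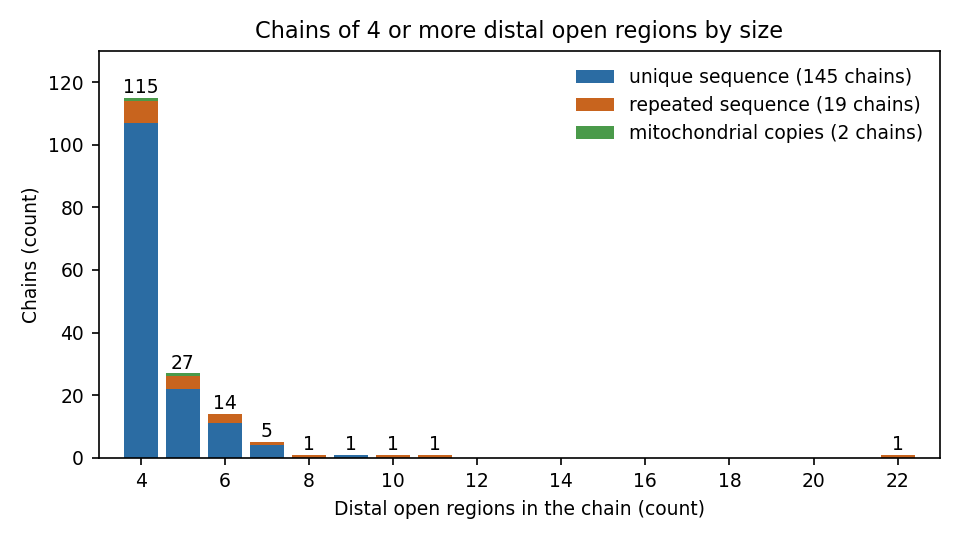
Number of chains (y axis) by the number of distal open regions they hold (x axis), stacked by sequence class; the number above each bar is its total. Chains of 4 regions are the most common with 115, and the chains of 10, 11 and 22 regions are all of repeated sequence.

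Unique-sequence chains spanned 15.1 kb at the median from the first to the last summit, with quartiles of 10.3 and 21.0 kb and a range of 2.11 to 41.8 kb. Neighbouring summits within them lay 4.02 kb apart at the median (quartiles 1.28 and 7.53 kb). For all distal regions the median distance between neighbouring summits was 68.4 kb, and 20.9% of these distances were at or under the limit. The longest unique-sequence chain was that at PLXNA2, a semaphorin receptor, with 5 regions over 41.8 kb. The shortest was nearest to CWH43, with 4 regions over 2.11 kb and the nearest protein-coding TSS 723 kb away. CWH43 was also the gene nearest to chains of repeated sequence.

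Summed fold enrichment was similar in both replicates but mostly higher in replicate 2. For unique-sequence chains the median sum was 27.9 in replicate 1 and 31.9 in replicate 2, and the sum was higher in replicate 2 for 116 of 145 chains. The ratio of the sum in replicate 2 to that in replicate 1 had a median of 1.08, with a range of 0.794 at MXI1 to 1.92 at CRIM1. At CRIM1 the sums were 17.3 and 33.3, the widest relative gap, and at MXI1, a MYC antagonist, they were 31.9 and 25.3. Across the 145 chains the sums of both replicates had a Spearman correlation of 0.859, a description over chains that share 2 libraries and differ in their number of regions. Within a chain, the strongest region held 32.5% of the summed fold enrichment at the median. It held 16.2% in the 9-region chain nearest to MRPS23 and 54.1% in the 4-region chain at MRPS22.

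**Figure D2:**
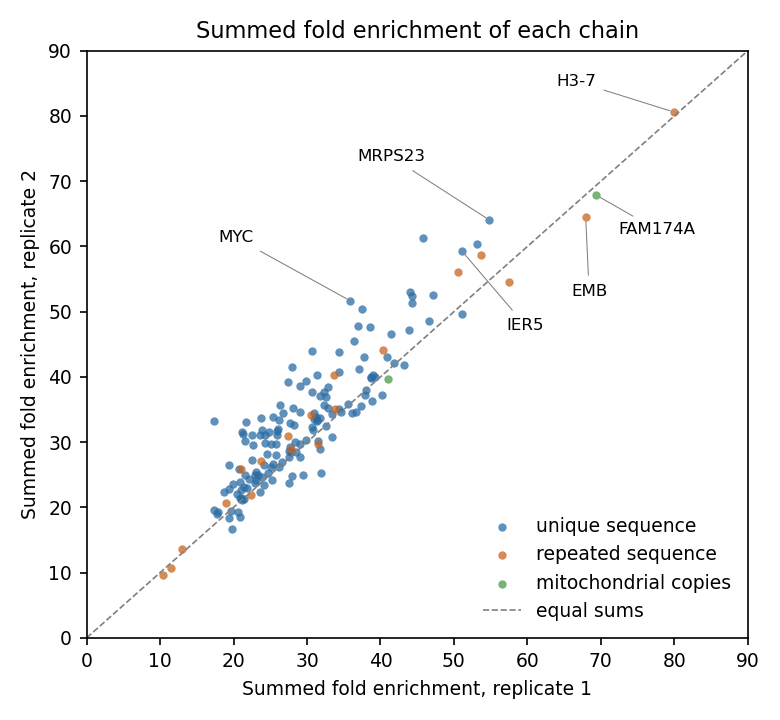
Summed fold enrichment of each of the 166 chains in replicate 1 (x axis) and replicate 2 (y axis), coloured by sequence class, with a dashed line of equal sums; labels give the nearest gene of 6 chains. Most points lie above the line, with 129 of 166 chains higher in replicate 2, and the highest sums belong to chains of repeated or mitochondrial sequence.

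Member regions differed from isolated ones in the signal around them. The median fold enrichment of unique-sequence members was 5.89 in replicate 1 and 6.75 in replicate 2. Regions alone had 6.06 and 7.70. The median number of fragments at the summit went the other way, with 38 in both replicates against 34 in both. The fold enrichment divides the fragments at the summit by a local background, each with 1 added. The lowest background was 4.77 fragments in replicate 1 and 3.41 in replicate 2. The background exceeded this value by more than 10% at 35.1% of the unique-sequence member summits in replicate 1 and at 63.8% in replicate 2. For regions alone the shares were 4.22% and 10.3%, and for chains of 2 or 3 they were 12.01% and 32.97%. The members were chosen by how close their peaks lie, so these values describe the choice and were not tested.

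The first-ranked chain of unique sequence, 4th in the whole ranking, lay at chr17:57868164-57903492. All its 9 regions were in introns of CUEDC1, and the nearest TSS was that of MRPS23, a protein of the mitochondrial ribosome, 18.4 kb away. In genomic order the fold enrichments were 5.37, 6.24, 8.82, 4.42, 3.98, 5.37, 8.14, 6.41 and 6.06 in replicate 1. In replicate 2 they were 7.48, 6.75, 10.2, 3.85, 4.61, 4.50, 11.1, 10.4 and 5.21. Regions 3 and 7 were the 2 highest in replicate 1, and regions 7 and 8 in replicate 2. No single region led this chain by far, and the sums were 54.8 and 64.1. The AP-1 motif was in regions 4, 5 and 9, the last of which is printed above.

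The chain downstream of IER5, an immediate early gene that responds to serum and stress, held 7 intergenic regions at chr1:181094912-181117992, the nearest 6.35 kb from its TSS. Its region 5 was the strongest, with a fold enrichment of 12.6 in replicate 1 and 14.3 in replicate 2, and held the AP-1 motif. The other 6 regions ranged from 4.25 to 8.49 in replicate 1 and from 4.11 to 11.5 in replicate 2. A second chain of 4 regions, 46.4 kb from the same TSS, had no AP-1 motif and sums of 21.3 and 31.3. The chain at DHRS3, which reduces retinaldehyde, held 7 regions at chr1:12595782-12620137, of which 5 were in introns of the gene. Its strongest region had 12.3 and 9.89, and 4 of its 7 regions held the motif. Its nearest region lay 1.016 kb from the TSS, just outside the promoter limit.

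MYC, the growth-promoting transcription factor, was the nearest protein-coding gene to 2 intergenic chains, both downstream of it. The first held 7 regions at chr8:127890045-127926546, 154 kb from the MYC TSS, with sums of 35.9 in replicate 1 and 51.7 in replicate 2. Its region 2 had the widest gap between the replicates, with a fold enrichment of 6.24 and 13.8, and was the only one with the AP-1 motif. The second chain held 6 regions at chr8:127845412-127867270, 109 kb from the TSS, with sums of 38.5 and 47.7. Its strongest region had 12.3 in replicate 1 and 9.64 in replicate 2, with 119 and 111 fragments, and held 2 copies of the motif. In this second chain 3 of 6 regions held the motif.

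TOMM20, a receptor of the mitochondrial import machinery, was the nearest gene to 6 intergenic regions at chr1:234962640-234997781, 131 kb away, with sums of 53.2 and 60.3. ITGB6 encodes the β6 integrin subunit, which with αv activates latent TGF-β. Its chain held 6 intergenic regions at chr2:160205472-160224376, the nearest 5.42 kb from the TSS, and the fold enrichments in genomic order were 14.6, 8.19, 3.50, 6.76, 4.85 and 6.06 in replicate 1. In replicate 2 they were 13.9, 8.84, 5.04, 9.06, 7.93 and 8.16. The region nearest to the gene was thus the strongest in both replicates, and 3 regions held 5 copies of the AP-1 motif. The ITGB6 promoter itself had no peak in either list. LOXL1, which cross-links elastin, had 6 regions at chr15:73924305-73957113, of which 4 were in its introns, with sums of 43.9 and 47.2. Its promoter had a peak of 3.81 in replicate 1 and none in replicate 2.

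**Figure D3:**
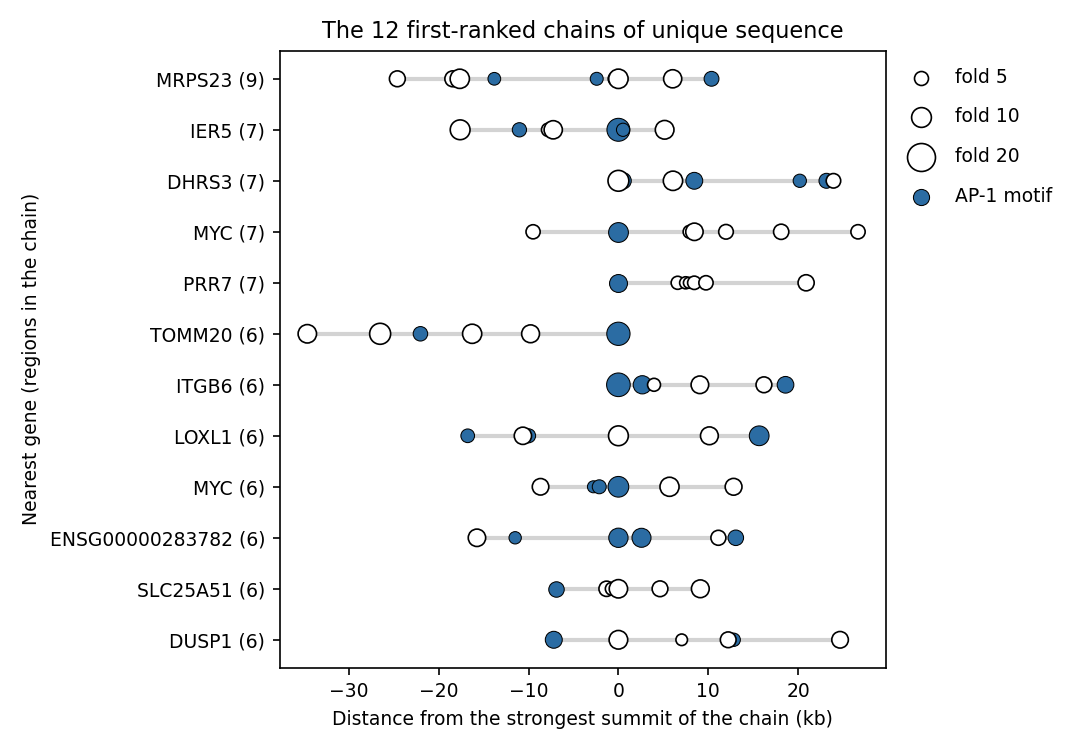
Regions of the 12 first-ranked chains of unique sequence (rows, by nearest gene with the number of regions), placed by the distance of their summit from the strongest summit of the chain in kb (x axis). Circle area is proportional to the mean fold enrichment of both replicates and blue marks an AP-1 motif; the strongest region holds the motif at IER5 and ITGB6 but not at MRPS23 or DHRS3.

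The 6-region chain around DUSP1, a phosphatase that inactivates MAP kinases, had sums of 34.4 and 40.7 and lay on both sides of its promoter, which was open in both replicates. SOCS3, an inhibitor of cytokine signalling, was nearest to 6 intergenic regions with sums of 32.3 and 37.7, the strongest with 9.03 and 10.1. Regions in introns of SHB, an adaptor protein, lay nearest to the TSS of SLC25A51, a mitochondrial NAD carrier, with sums of 38.7 and 39.9. At PLEC, a linker of cytoskeletal filaments, all 6 regions were in introns, and 2 open promoter regions lay among them. The remaining unique-sequence chains of 6 or 7 regions were nearest to PRR7, FAAP20, SCHIP1 and an unnamed protein-coding gene, ENSG00000283782. The last of these held the AP-1 motif in 4 of its 6 regions. PRKAG2, a regulatory subunit of AMP-activated kinase, was nearest to the first-ranked chain of 5 regions, with sums of 45.7 and 61.3 and the motif in 3 regions.

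Of all 19970 protein-coding genes, 152 (0.761%) were nearest to a chain. Of 297 genes in 9 lists, chosen with earlier results of these data known, 14 (4.71%) were. Genes of these lists were also nearest to any distal region more often, 202 of 297 (68.0%) against 6678 of 19970 (33.4%), and among the genes so placed, 14 of 202 listed genes (6.93%) and 152 of all 6678 (2.28%) were nearest to a chain. How far the choice of the lists bears on these shares was not tested. Extracellular matrix genes had the most, with 6 of 38. Among them were LOXL2, which cross-links collagen, TGFBI, a secreted matrix protein, CCN1, a matricellular protein, and COL4A2 and COL1A1, which encode collagen chains. Of 29 TGF-beta and Hippo pathway genes there were 2, AMOTL1 and AMOTL2, whose products bind YAP. Of 42 other transcription factors there were 2, KLF4 and IRF1. A single gene was found in each of 4 lists, namely PXN of 42 actin and adhesion genes, JUN of 24 AP-1 and related genes, SOX9 of 30 airway genes and PTPRC of 24 blood and endothelial genes. None of 39 growth factor receptors and ligands was nearest to a chain of regions shared by both replicates, but 4 were without replicate 1 and 2 without replicate 2. None of 30 epithelial markers was nearest to a chain in either case. All the chains at these genes had 4 regions.

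At TGFBI the 4 regions had a summed fold enrichment of 28.2 in replicate 1 and 35.2 in replicate 2, with the nearest 8.39 kb from the TSS, and 2 held the AP-1 motif. At COL1A1 the sums were 24.8 and 31.6, and the nearest region lay 1.32 kb from the TSS. The 4 regions at LOXL2 were in its introns, with sums of 30.96 and 33.6. At CCN1 they were intergenic, with sums of 31.7 and 29.0, and none held the motif. These 4 genes had a promoter peak in both replicates.

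JUN, a subunit of AP-1, was nearest to 4 regions 30.7 kb away, packed within 3.46 kb and without an AP-1 motif. Their sums were 21.0 and 22.7. SOX9, a transcription factor of airway progenitors and cartilage, was nearest to 2 chains at 267 and 287 kb. The farther one had sums of 37.5 and 50.4 with 4 copies of the motif in 2 regions, and the nearer had 21.0 and 21.4. PTPRC encodes CD45 of white blood cells. Its chain lay in its introns with sums of 27.9 and 41.5, and its promoter had no peak in either list. Of the 14 genes, 11 had a promoter peak in both replicates.

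In all, 8 genes were nearest to more than 1 unique-sequence chain. Besides MYC, IER5 and SOX9 these were ANXA2R, SEPTIN9, SH3TC2, TRIM7 and ZNF608. SEPTIN9, a cytoskeletal GTPase, had chains 1.56 and 140 kb from its TSS. All 4 regions of the farther one were in its introns, as were 3 of 4 of the nearer one. SH3TC2 had a chain of 5 regions with sums of 41.9 and 42.2 and one of 4 with sums of 30.96 and 34.4. ANXA2R, SH3TC2, TRIM7 and ZNF608 lie on chromosome 5.

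Chromosome 5 held 26 of the 145 unique-sequence chains, and 29 of all 166, more than any other chromosome. On it 114 of 1366 distal regions were unique-sequence members (8.35%, 95% Wilson interval 6.99 to 9.93). On the other chromosomes together the share was 527 of 13667 (3.86%, 3.55 to 4.19). Chromosome 17 had 15 such chains and 69 of 613 regions (11.3%, 8.99 to 14.0), and chromosomes 20, 21 and X had none. Distal regions were also denser, at 7.52 per Mb on chromosome 5 and 7.36 on chromosome 17, against 4.796 on the chromosomes other than 5. Regions alone had a median of 37 fragments on chromosome 5 in both replicates, against 34 and 33 on the chromosomes other than 5, while on chromosome 17 they had 33 and 34. No control of DNA copy number was analysed, and its part in these counts was not tested. Intervals here and below cover counting error only, since neighbouring regions are not independent replicates.

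Of the 641 regions, 337 (52.6%) were in introns, 292 were intergenic and 12 were in exons. Of all 774 member regions, 358 (46.3%) were in introns and 404 were intergenic. Distal was set by protein-coding genes alone, and 59 of the 641 summits (9.20%) lay within 1 kb of the TSS of another kind of gene. For regions alone this share was 10.3%. The summits of 54 chains were all intergenic, those of 64 were all within genes and 27 chains had both. The nearest TSS was 24.8 kb away at the median, with 48 chains within 10 kb, 117 within 100 kb and 28 farther. Over all 166 chains the median was 28.6 kb, 72 were wholly intergenic and 42 lay beyond 100 kb. In 22 chains a protein-coding TSS lay between the summits, and in 15 chains an open promoter region did.

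The genes nearest to the chains had an open promoter more often than other genes. A peak of each replicate overlapping 1 kb to either side of the TSS was found at 97 of 137 genes nearest to a unique-sequence chain (70.8%, 95% Wilson interval 62.7 to 77.8). For all chains it was 105 of 152 (69.1%, 61.3 to 75.9). The share was 63.9% (61.7 to 66.1) for genes nearest to chains of 2 or 3, 58.1% (56.7 to 59.5) for genes nearest only to regions alone and 48.5% (47.7 to 49.4) for genes nearest to no distal region. The intervals of both overlapped that of chains of 2 or 3, and both lay above that of regions alone. A member region with its summit beyond 1 kb could itself overlap this stretch and be counted as the promoter peak, as at PRR7. Counting a promoter peak only where its summit lay within 1 kb of the TSS, an alternative chosen after seeing the data, gave 70.1% for unique-sequence chains and 68.4% for all. At the genes with such a peak, the median fold enrichment of the promoter was 7.29 in replicate 1 and 8.16 in replicate 2 for unique-sequence chains, and 8.14 and 9.64 for all genes. Genes near repeated-sequence chains had a promoter peak in 6 of 14 cases.

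Of the 641 unique-sequence member regions, 191 held the AP-1 motif within 100 bp of their summit (29.8%, 95% Wilson interval 26.4 to 33.4). In windows of the same length 1 kb to either side the share was 4.21%. Of regions alone 3206 of 9607 held it (33.4%, 32.4 to 34.3), with 3.08% in their flanks, and of regions in chains of 2 or 3 there were 1501 of 4652 (32.3%). The difference between unique-sequence members and all other distal regions was −3.21 percentage points, with an interval of −6.71 to 0.52 that includes 0. With the repeated and mitochondrial chains included the share was 196 of 774 (25.3%, 22.4 to 28.5), and the difference was −7.69 points (−10.7 to −4.42). The 124 regions of repeated sequence held the motif in 5 cases (4.03%). In unique-sequence members with a motif, the nearest copy lay 32 bp from the summit at the median, and within 50 bp in 68.6%. Outside chromosome 5, the AP-1 share was 31.1% (27.3 to 35.2) in unique-sequence members and 33.5% (32.5 to 34.5) in regions alone.

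**Figure D4:**
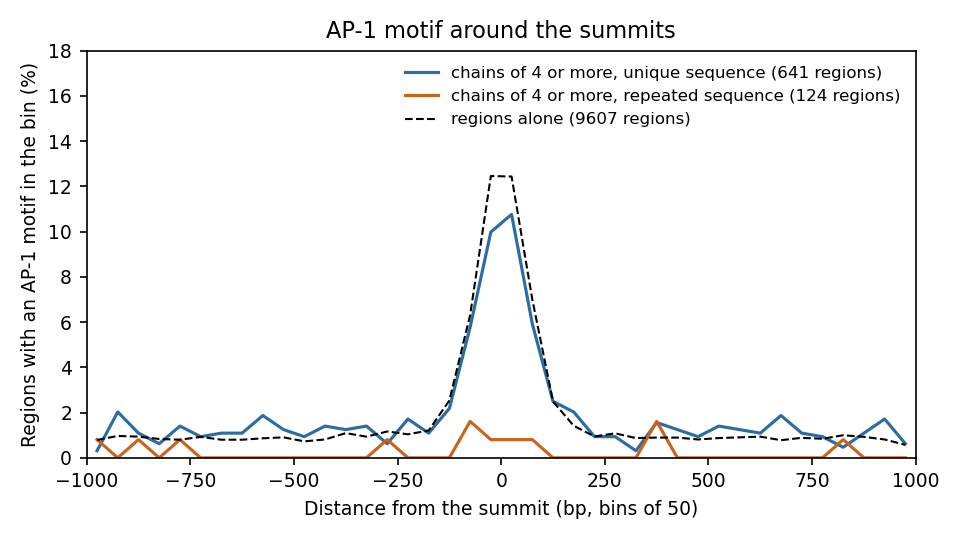
Share of regions with an AP-1 motif whose central base lay in each 50 bp bin (y axis, percent) by distance from the summit (x axis, bp), for unique-sequence members, repeated-sequence members and regions alone. The unique-sequence members and the regions alone both peak at the summit, and the repeated-sequence members stay near 0.

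The motif was also counted per chain, with no expected count for chains of these sizes computed beside it. Of the 145 unique-sequence chains, 109 (75.2%) had it in at least 1 region, 61 in 2 or more, 17 in 3 or more and 2 in all. Both of the last have 4 regions. At MRPS22, another protein of the mitochondrial ribosome, region 2 had a fold enrichment of 19.4 in replicate 1 and 15.3 in replicate 2, whereas the other 3 lay between 4.31 and 5.44 in either replicate. At FGGY, a carbohydrate kinase 146 kb away, the fold enrichments in replicates 1 and 2 were 3.98 and 5.89 at region 1, 3.64 and 4.30 at region 2, 8.49 and 11.1 at region 3, and 14.6 and 16.4 at region 4. Region 4 was the strongest in both replicates and alone held 2 copies. Other chains of 4 with the motif in 3 regions were nearest to LYST, IRS1, SERPINA3, TEX35, FHDC1 and SYNJ2. The strongest region of a chain held the motif in 50 of 145 chains (34.5%, 27.2 to 42.5) and the weakest in 34 of 145 (23.4%, 17.3 to 30.97), with overlapping intervals.

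The share with the motif depended on base composition, which was examined after the values had been seen. Unique-sequence members had a median GC content of 56.2%, against 50.7% for regions alone. Where the window had a GC content under 45%, 24 of 95 members held the motif (25.3%, 95% Wilson interval 17.6 to 34.8), against 40.03% (38.2 to 41.9) of 2648 regions alone. From 45 to 55% the shares were 42.3% (35.8 to 49.1) and 41.7% (40.05 to 43.3), and from 55 to 65% they were 29.2% (23.5 to 35.6) and 29.7% (27.7 to 31.8). At 65% or more, 16 of 122 members held it (13.1%, 8.24 to 20.2), against 6.78% (5.61 to 8.17) of 1489 regions alone. The members were thus below isolated regions in the windows poorest in GC, near them in the middle and above them in the richest, where the intervals just failed to overlap.

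Among 10 other motifs, SP/KLF alone had intervals that did not overlap between unique-sequence members and regions alone. The SP/KLF motif GGGCGG was in 22.9% of members (19.8 to 26.3) and in 17.7% of regions alone (16.98 to 18.5), with 9.75% and 5.61% in their flanks, so the surroundings of members were also richer in it. The ratio to the flanks was lower in members, 2.35 against 3.16. The SP/KLF share was not split by GC content, which was higher in members. The CTCF motif, of the factor that anchors chromatin loops, was in 1.40% of members (0.740 to 2.65) and in 2.71% of regions alone (2.4 to 3.05), with intervals that overlapped at their edges. TEAD (ACATTCC) was in 8.42% and 10.1%, RUNX (TGTGGTT) in 6.71% and 8.38%, and C/EBP (TTGCNNAA) in 8.27% and 10.04%, all with overlapping intervals. The ETS (CCGGAAG), FOX (TGTTTAC), E-box (CACGTG), NF-kB and SRF motifs were each in under 5% of either class. All motifs were searched on both strands within 100 bp of the summit, and a match is a sequence and not a bound site.

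**Figure D5:**
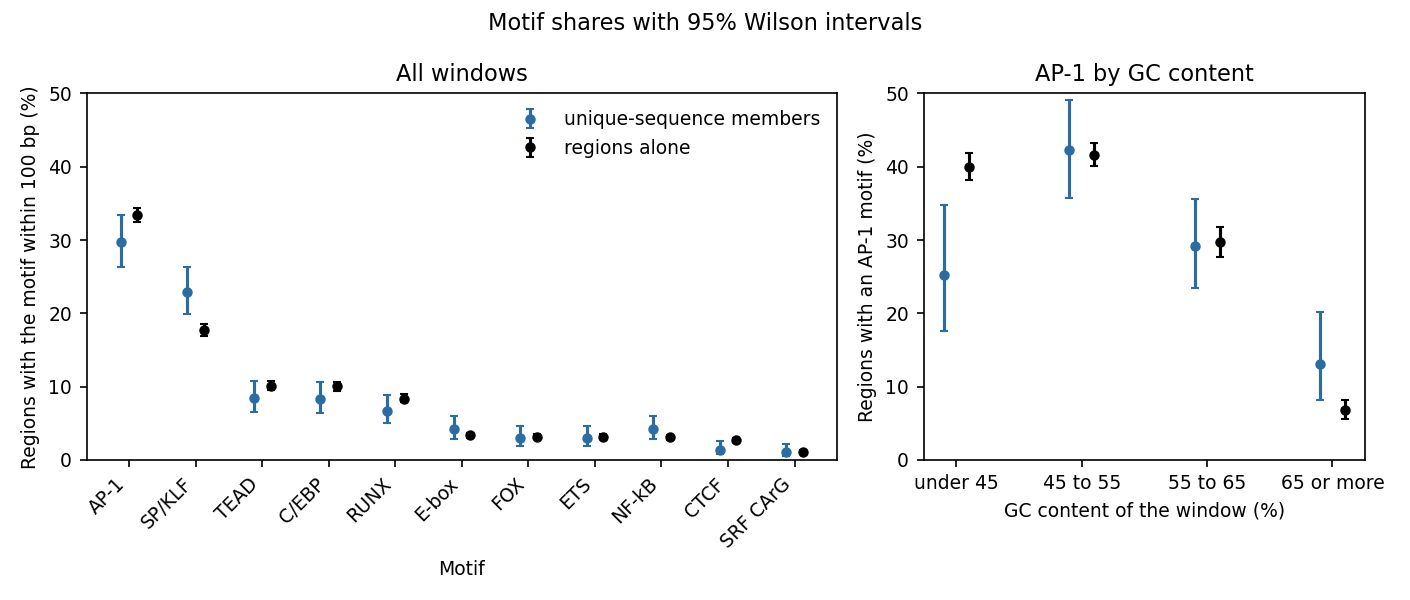
Left, share of regions with each of 11 motifs within 100 bp of the summit (y axis, percent) in unique-sequence members (blue) and regions alone (black), and right, the AP-1 share by GC content of the window (x axis, percent); bars are 95% Wilson intervals. SP/KLF is higher in members (22.9% against 17.7%, not split by GC content), and the AP-1 shares cross from below to above those of regions alone as GC content rises.

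The chains of repeated sequence took the first 3 ranks. The largest, at chr1:143184563-143275925, held 22 regions over 91.2 kb, 630 kb from the TSS of H3-7, a histone gene. Each of its windows shared a run of at least 45 bases with another of them, and the median window had 23 copies in hg38. Its sums were 79.9 and 80.6, although its regions had a median fold enrichment of only 3.47 and 3.20. The second, at chr16:34572516-34595696, held 11 regions, 7 of them repeated. The third, with 10 regions at chr17:43266271-43300728, lay on U2 genes in an intron of CCDC200, with sums of 53.7 and 58.8 and 13 copies at the median window. Each of its windows shared at least 108 bases with another.

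A further chain of 6 regions over RNU2-1 and other U2 genes ranked 12th, and one of 5 regions at chr1:161440254-161470075 had a tRNA gene within 1 kb of all 5 summits. On chromosome 21, a chain of 5 and a chain of 4 regions lay at copies of MIR6724, and another chain of 4 at a 5.8S ribosomal RNA gene. U2, tRNA and ribosomal RNA genes are transcribed at high rates and exist in many near-identical copies. How reads were placed among the copies was not tested. The chain nearest to EMB on chromosome 5, with 7 regions in 8.52 kb and 774 kb from that TSS, had sums of 67.9 and 64.5. Its strongest region reached 427 fragments in replicate 1 and 378 in replicate 2. The 124 repeated-sequence regions had a higher local background, with medians of 10.5 and 10.2 fragments against 4.77 and 4.45 for unique-sequence members. Their lower fold enrichment, 4.31 and 4.53 at the median, thus stood beside more fragments, 57 and 54.

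Both mitochondrial chains lay on chromosome 5 over annotated pseudogenes of mitochondrial genes. The one nearest to FAM174A held 4 regions at chr5:100046374-100051605 with sums of 69.4 and 67.8, the second highest of all chains. The other held 5 regions at chr5:134923768-134927312 in an intron of PCBD2, with sums of 41.0 and 39.7. None of their 9 regions held an AP-1 motif. How many of their reads came from mitochondrial DNA was not tested. Of the 5 chains with the highest summed fold enrichment, those nearest to H3-7, FAM174A and EMB were of repeated or mitochondrial sequence, and those nearest to MRPS23 and TOMM20 were of unique sequence. Peaks of a single replicate also lay within the spans of unique-sequence chains, 18 of replicate 1 and 44 of replicate 2, and were not counted as regions.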

How the data were processed

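Distal open regions were taken from the ATAC-seq peaks of untreated B2B cells (2 replicates, each with its own list). The authors aligned reads to hg38 using Bowtie2 2.4.4, dropped duplicates by their own code and ran MACS2 2.2.7.1. SAMtools 1.13 is named in the submitters' processing notes. Tn5 shift, handling of mitochondrial reads and q limit are not given in the sources used here. The deposited fold enrichment is a ratio of fragments at the summit to local background, each with 1 added, and −log10 p and −log10 q are given for each peak. Peaks on unplaced sequences and chromosomes Y and M were left out of the chains.

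The peaks were merged where they overlapped by 1 bp or more, and the summit of a region was that of its peak with the highest −log10 q. TSSs were the canonical ones of GENCODE 44. Fragments were solved from fold enrichment and −log10 p and counted as whole within 0.01. Depth is known only through these fragments. Copies were counted as 31-base words in hg38, and mitochondrial matches with blastn 2.17.0 (E-value limit 1e-10). On simulated data, 400 of 400 planted chains, 400 of 400 planted motifs and 1000 of 1000 fragment numbers were recovered. The software was Python 3.11.15, pysam 0.24.0, numba 0.67.0, numpy 2.4.6, scipy 1.17.1, pandas 2.3.3 and matplotlib 3.10.9. Sequences are from hg38.

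The genes named are the nearest genes of the 25 first-ranked chains, of the 5 chains with the highest summed fold enrichment and of all chains of 8 or more regions, and the list genes nearest to a chain, 1 of which is not reported here. Genes named outside this rule were chosen after their values were seen. So were the sequence classes and the splits by number of regions, fold enrichment, GC content, local background and chromosome. The members and lists were chosen with earlier results of these data known. As alternatives, a −log10 q limit of 5, each replicate alone, other distances, promoter limits and TSSs, 5 or more regions, an overlap of 50%, other motif and promoter windows, and no repeated or mitochondrial chains were tried.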

Additional observations from a re-analysis of the deposited data

Results flagged for a closer look

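On chromosome Y and on unplaced or unlocalized sequences, which were left out of the comparisons, 153 regions held a peak of each replicate. They formed 6 chains of 4 or more regions with 58 regions, 1 of them on chromosome Y, and the largest held 30 regions. They stood out as signal in data outside the main measurement. The sequence class of these chains was not tested.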

How the results depend on the processing

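Of 86 alternative values for the 8 main results, 51 stayed within the limits set for the same value and 35 moved. Those limits are not listed here. Only the difference in AP-1 share between members and other distal regions could change sign, since the other results are counts, spans or shares. This difference stayed negative in every alternative, but its interval included 0 without chains of repeated or mitochondrial sequence. Leaving out 1 replicate gave 263 chains (without replicate 2) to 509 chains (without replicate 1), 7.40 to 10.5% of distal regions in chains, a median span of 13.6 to 15.0 kb, and 18 to 35 list genes. With 5 kb between summits there were 41 chains with 1.22% of distal regions, a median span of 6.59 kb, at most 9 regions, 4 list genes, an AP-1 share of 12.02% and a difference of −20.8 points. With 25 kb there were 358 chains with 12.04% of distal regions, a span of 32.4 kb, 30 list genes, an AP-1 share of 29.7% and a difference of −3.29 points. With 5 or more regions there were 51 chains with 2.09%, a span of 20.03 kb, 0 list genes, an AP-1 share of 21.97% and a difference of −10.9 points. A −log10 q limit of 5 gave 147 chains with 4.69% of distal regions. Excluding regions within 1 kb of any annotated TSS of a protein-coding gene gave 126 chains with 4.45%. An overlap of 50% of each peak gave 129 chains with 4.36% and 9 list genes. A motif window of 50 bp gave an AP-1 share of 16.3%, and a promoter window of 3 kb a promoter share of 76.3%. Without chains of repeated or mitochondrial sequence, an alternative chosen after seeing the data, the share was 4.26%, the largest chain had 9 regions, and the AP-1 share and difference were 29.8% and −3.21 points. All other alternatives kept these chains, and their AP-1 values at 5 and 25 kb were not split by sequence class. Within unique-sequence chains the AP-1 share was 29.4% of regions in chains of 4, 27.3% in chains of 5 and 33.98% in chains of 6 or more.

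No paired analysis was possible because there was 1 condition. The weakest shared distal summits had 16 fragments in replicate 1 and 14 in replicate 2, so chains with weaker regions may be broken or missed, and the replicate with fewer peaks limits the shared regions.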
